A study of Mus musculus with 27 samples.

Results

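The genes described here are 10 genes known for their rise in disease-associated microglia: Gpnmb, Spp1, Trem2, Tyrobp, Cst7, Igf1, Cd9, Cd63, Lgals3 and Cd52. They were taken as a named list, and every probe that the array's annotation gives to one of them was used. Spp1 has no named probe in the annotation and was not analysed here, which left 9 of the 19057 genes with a named probe. These 9 genes have 16 probes, and all 16 passed the filter on dim probes. Gpnmb has 4 probes, Cd63 has 3, Igf1 and Cd52 have 2 each, and the other genes have 1.

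Disease-associated microglia are a state that brain macrophages take up near amyloid plaques, dying neurons and damaged myelin. The cell surface receptor Trem2 binds lipids and apoptotic cells and signals through the adaptor Tyrobp, and in mouse models of amyloid disease the full state is not reached without Trem2. Along with it rise genes of lysosomes and phagocytosis, secreted growth factors and tetraspanins, many of which other macrophages also use.

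The series holds 27 Illumina bead arrays of 1 colour, which read RNA from 8 groups of C57BL/6 mouse cells. From the brain came the cells labelled Microglia (3 arrays, day 3), Astrocyte (3 arrays, day 3) and Neuron (3 arrays, embryonic day 15 to 16). The lines ESdM 20 and ESdM 22 (3 arrays each) were grown from embryonic stem cells and had been cultured for more than 51 days. MF (4 arrays) and BM-DC (3 arrays) came from bone marrow at day 7, with names that the labels do not spell out, and CD8 Tnaive (5 arrays) from spleen at 6 to 8 weeks. No genotype change or drug treatment is given for any group, the labels do not say whether replicates were separate cultures or animals, and p-values therefore rest on the spread among these arrays alone, part or all of which may be technical.

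Between 14247 and 17533 probes were detected per array, and median raw intensities ran from 27.6 in BM-DC to 113 in Astrocyte. Levels below are log2 normalized intensities, in which undetected probes lie near 4.28 and the lowest detected value of an array lies between 4.52 and 4.78. A probe counts as detected at a detection p below 0.05. The arrays lay on 10 chips: Microglia and both ESdM lines shared 2 chips, Astrocyte and Neuron shared 1, and every other group was on chips of its own, so that outside those shared chips chip and cell type cannot be told apart. Nor can age be told apart from cell type. In bulk samples, fewer cells of a type and less RNA per cell cannot be told apart.

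The labels were set against marker genes. Summed levels below are linear and include undetected probes at their floor. The 8 dendritic cell markers, detected on no Neuron array, still summed to 156 to 161 there. All 7 named macrophage lineage markers were detected on every array of Microglia, ESdM 20, ESdM 22, MF and BM-DC. Of 9 named microglia markers, 7 (Fcrls, Cx3cr1, Tmem119, P2ry12, P2ry13, Olfml3 and Siglech) were detected on no Microglia array, and the summed linear level of the list was 210 to 218 there. The Astrocyte arrays went the other way: 7 of the 9 were detected on all 3, with a summed level of 4790 to 9560. Fcrls alone stood at 12.95, 11.88 and 12.18 on the Astrocyte arrays. The Astrocyte arrays also held 6 of the 7 macrophage lineage markers, with a summed level of 9510 to 13800 against 18900 to 20500 on the Microglia arrays and 153 to 164 on the Neuron arrays. Their 8 astrocyte markers summed to 22200 to 25300. Of the 8 dendritic cell markers, 5 (Itgax, Ccr7, H2-Ab1, H2-Aa and Ciita) were detected on all BM-DC arrays and Flt3 and Zbtb46 on none, with a summed level of 7780 to 10900 against 2240 to 2550 in MF. The BM-DC arrays also carried all 4 granulocyte markers (summed 3060 to 5120, against 189 to 230 in MF). On the CD8 Tnaive arrays Cd3e, Cd3d and Lef1 were detected on all 5, while the Cd8a probe was detected on no array of the series.

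All 9 measured genes were detected on every Microglia, ESdM 20, ESdM 22, MF and BM-DC array. On the Astrocyte arrays 8 of 9 were detected on all 3, and Cst7, a lysosomal inhibitor of cathepsin-type proteases, on none. On the Neuron arrays 3 of 9 (Gpnmb, Cd9 and Cd63) were detected on all 3. On the CD8 Tnaive arrays 5 of 9 (Tyrobp, Cst7, Cd9, Lgals3 and Cd52) were detected on all 5. For comparison, between 54.4% and 68.9% of the 12814 genes tested were detected on all arrays of a group. The group means of the 9 genes spanned a median of 8.40 on the log2 scale, against 1.93 for all genes tested.

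**Figure D1:**
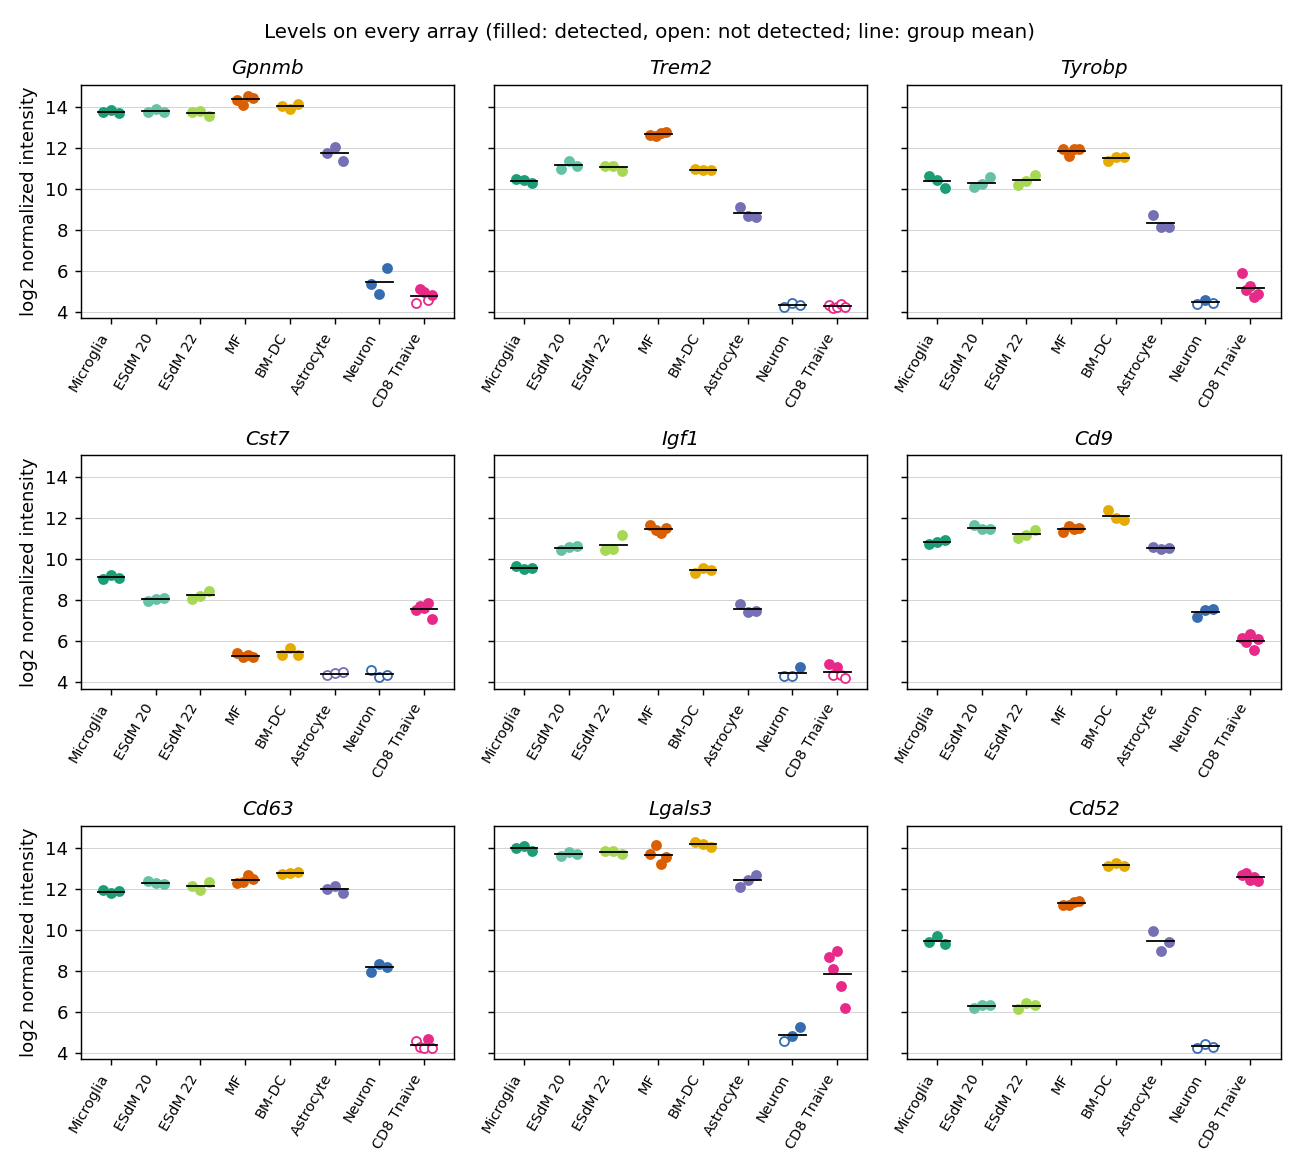
Log2 normalized intensity (vertical axis) of the brightest probe of each of the 9 genes on every array of the 8 groups (horizontal axis), with filled points detected, open points not detected and a line at the group mean. The Microglia, ESdM, MF and BM-DC arrays are all filled, Cst7 is highest on the Microglia arrays, and Cd52 is near 6.3 on the ESdM arrays against 9.45 on the Microglia arrays.

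Trem2, the lipid-sensing receptor, was highest in MF and stood in a middle range in the cells labelled Microglia. Its levels were 12.64, 12.57, 12.74 and 12.75 on the MF arrays and 10.48, 10.42 and 10.27 on the Microglia arrays. They were 10.97, 11.35 and 11.10 in ESdM 20, 11.11, 11.13 and 10.89 in ESdM 22 and 10.95, 10.92 and 10.91 in BM-DC. The MF arrays lay above all others. ESdM 22 overlapped both ESdM 20 and BM-DC, all ESdM 20 arrays lay above all BM-DC arrays, and all Microglia arrays lay below those 3 groups. On the Astrocyte arrays Trem2 stood at 9.13, 8.68 and 8.64, and it was detected on no Neuron and no CD8 Tnaive array. The Microglia arrays were 4.89-fold lower than MF (log2 difference -2.29 ± 0.115 (SE), n = 3 and 4, adjusted p = 6.65e-15). The ESdM arrays were 2.99-fold lower than MF (adjusted p = 2.37e-13), and MF was 3.35-fold higher than BM-DC (adjusted p = 2.59e-12). ESdM exceeded Microglia by 0.71 (95% interval 0.49 to 0.93, adjusted p = 3.27e-05), which is below the minimum difference of 1 used for a call.

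Tyrobp, the adaptor that carries the activating signal of Trem2 and of several other myeloid receptors, did not share the step between ESdM and Microglia. Its levels were 10.63, 10.41 and 10.04 on the Microglia arrays, 10.08, 10.22 and 10.57 in ESdM 20 and 10.16, 10.38 and 10.67 in ESdM 22. These 9 arrays overlapped fully, and the difference was -0.02 (95% interval -0.41 to 0.38, adjusted p = 0.996). In MF it stood at 11.93, 11.61, 11.94 and 11.94, and in BM-DC at 11.36, 11.54 and 11.53. All MF and BM-DC arrays lay above all Microglia and ESdM arrays. Microglia were 2.81-fold lower than MF (log2 difference -1.49 ± 0.209, n = 3 and 4, adjusted p = 1.17e-06) and 2.17-fold lower than BM-DC (log2 difference -1.12 ± 0.224, adjusted p = 0.000132). Without Microglia replicate 3 the difference from BM-DC was -0.96 and no longer reached the minimum for a call. The Astrocyte arrays read 8.72, 8.14 and 8.13, and 1 of 3 Neuron arrays detected Tyrobp, at 4.58. All CD8 Tnaive arrays detected it, at 5.89, 5.07, 5.26, 4.70 and 4.86.

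Gpnmb, a membrane glycoprotein of phagocytes with a role in lysosomal stress, was detected on all arrays except 2 of CD8 Tnaive. Its brightest probe read 13.75, 13.85 and 13.71 on the Microglia arrays, 13.75, 13.87 and 13.76 in ESdM 20 and 13.76, 13.81 and 13.54 in ESdM 22. It read 14.35, 14.09, 14.55 and 14.44 in MF and 14.04, 13.87 and 14.15 in BM-DC. ESdM and Microglia overlapped (difference -0.02, 95% interval -0.41 to 0.37, adjusted p = 0.996), and Microglia lay 0.59 below MF without reaching a call (adjusted p = 0.0194). On this probe MF had raw intensities of 17100 to 28500 and placed it between the 2nd and the 16th brightest of all probes of an array. The 3 dimmer Gpnmb probes gave another size: Microglia were 4.88-fold, 9.54-fold and 6.25-fold lower than MF, with adjusted p from 4.51e-16 to 8.81e-08. The same 3 probes put ESdM 4.96-fold, 6.69-fold and 4.38-fold below MF, and Microglia 4.13-fold, 2.33-fold and 2.48-fold below BM-DC. Saturation of the brightest probe was not tested. On all 4 probes ESdM and Microglia differed by at most 0.51, below the minimum for a call. The 2 dimmest probes put all ESdM arrays above all Microglia arrays, by 0.51 each (adjusted p = 0.00885 and 0.00491). On the 2 brighter ones the arrays overlapped. The Astrocyte arrays read 11.74, 12.06 and 11.37 on the brightest probe and between 4.82 and 6.01 on the other 3. The Neuron arrays read 5.37, 4.87 and 6.13 on the brightest Gpnmb probe, and none of them detected the other 3.

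Cst7, the cathepsin inhibitor also known as cystatin F, was the gene of the 9 with its highest group mean on the Microglia arrays. It read 9.03, 9.22 and 9.08 there, 7.95, 8.06 and 8.11 in ESdM 20 and 8.07, 8.22 and 8.44 in ESdM 22. In MF it read 5.43, 5.22, 5.33 and 5.21, and in BM-DC 5.33, 5.69 and 5.33, all detected. Every Microglia and ESdM array lay above every MF and BM-DC array. Microglia were 14.0-fold higher than MF (log2 difference 3.81 ± 0.140 (SE), n = 3 and 4, adjusted p = 1.22e-17) and 12.6-fold higher than BM-DC (adjusted p = 7.7e-17). ESdM were 7.17-fold higher than MF (log2 difference 2.84 ± 0.119, n = 6 and 4, adjusted p = 9.48e-17). ESdM lay below Microglia by 1.95-fold (log2 difference -0.97, 95% interval -1.23 to -0.70, adjusted p = 6.34e-06), just short of a call. Without Microglia replicate 1 or without ESdM 22 replicate 3 that difference was -1.01 or -1.02 and was called. The CD8 Tnaive arrays read 7.53, 7.71, 7.61, 7.84 and 7.08 for Cst7. Of the 7 macrophage lineage markers, these arrays detected Csf1r, Laptm5 and Fcer1g on all 5, Adgre1 on 4, Mertk on 2, and Itgam and Fcgr1 on none, and their part in the Cst7 level was not tested. The CD8 Tnaive arrays lay between ESdM and BM-DC. Microglia exceeded the Astrocyte arrays at least 23.6-fold for Cst7 (adjusted p = 1.68e-19). The Neuron arrays did not detect it either.

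Igf1, a secreted growth factor that supports neurons and myelinating cells, was highest in MF and higher in ESdM than in Microglia. Its brighter probe read 9.66, 9.51 and 9.57 on the Microglia arrays, 10.45, 10.60 and 10.66 in ESdM 20 and 10.43, 10.49 and 11.19 in ESdM 22. It read 11.69, 11.43, 11.28 and 11.51 in MF and 9.32, 9.58 and 9.47 in BM-DC. All ESdM arrays lay above all Microglia arrays and below all MF arrays, and Microglia and BM-DC overlapped. ESdM were 2.08-fold higher than Microglia (log2 difference 1.06 ± 0.162, n = 6 and 3, adjusted p = 3.98e-05). On the other Igf1 probe the same comparison gave 2.86-fold (log2 difference 1.51 ± 0.185, adjusted p = 2.09e-06). For the brighter Igf1 probe the call rested close to the minimum difference of 1: without ESdM 22 replicate 3 the difference was 0.94. Within the 2 chips that these groups share, the Igf1 difference was 0.82 (adjusted p = 0.173) and 1.21 (adjusted p = 0.00096). Microglia were 3.72-fold lower than MF (log2 difference -1.90, adjusted p = 9.63e-10), and MF 4.05-fold higher than BM-DC (adjusted p = 4.9e-10). The Astrocyte arrays read 7.83, 7.41 and 7.48 for Igf1. It was detected on 1 of 3 Neuron and 2 of 5 CD8 Tnaive arrays.

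Trem2 and Igf1 were the pair of the 9 genes whose 8 group means were most alike (Pearson r = 0.99 over 8 groups), and Cst7 was unlike both (r = 0.22 and 0.32). Their promoters are printed as examples picked by these correlations, and a link between motifs and levels was not tested. Of the 10 genes, 8 had an entry in the RefSeq promoter table (GRCm38.p6), all but Tyrobp and Cd52, and the 250 bases before the start were searched on both strands for 4 motifs. These were AGGAAGT (the core bound by PU.1-type ETS factors), TGANTCA (a loose form of the AP-1 site, N being any base), CACGTG (E-box) and CATGTG (M-box). In capitals stand the matches, 5′ to 3′ along the strand of the gene. Trem2 lies on chromosome 17 (chr17:48346151-48346400, plus strand), Igf1 on chromosome 10 (chr10:87860861-87861110, plus strand, before a start inside the gene's annotated span) and Cst7 on chromosome 2 (chr2:150570165-150570414, plus strand).
Trem2: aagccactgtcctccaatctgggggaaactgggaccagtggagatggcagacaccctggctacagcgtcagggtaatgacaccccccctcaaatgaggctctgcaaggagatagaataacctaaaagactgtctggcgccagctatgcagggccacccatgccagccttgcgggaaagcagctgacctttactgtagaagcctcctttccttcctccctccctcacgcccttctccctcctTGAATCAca
Igf1: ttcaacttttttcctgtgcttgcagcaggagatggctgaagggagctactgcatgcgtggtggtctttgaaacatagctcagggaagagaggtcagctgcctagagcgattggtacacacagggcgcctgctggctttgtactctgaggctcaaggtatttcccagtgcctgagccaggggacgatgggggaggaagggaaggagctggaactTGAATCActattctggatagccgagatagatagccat
Cst7: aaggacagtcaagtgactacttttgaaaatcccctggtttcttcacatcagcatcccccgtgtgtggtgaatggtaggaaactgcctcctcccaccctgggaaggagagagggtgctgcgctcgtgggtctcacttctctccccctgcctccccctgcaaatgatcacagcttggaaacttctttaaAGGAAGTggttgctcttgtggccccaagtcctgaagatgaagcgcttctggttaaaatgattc
In Trem2 the TGANTCA letters begin 9 bases before the start and in Igf1 37 bases before it. Both spell TGAATCA, with A at N, where the AP-1 consensus has C or G, so they match the loose form only. In Cst7 the ETS core begins 63 bases before the start. Over 32851 mouse promoters of the same length, 6.75% held the TGANTCA letters, 7.69% the ETS core, 6.02% the E-box and 12.3% the M-box. Cd9 held an M-box 38 bases before its start and 1 of the Spp1 entries an ETS core 112 bases before it. The windows of Gpnmb, Cd63 and Lgals3 held none of the 4. The pairs Gpnmb and Trem2, Gpnmb and Cd9, and Cd9 and Cd63 were nearly as alike (r = 0.98 each) and shared no motif. Trem2 and Tyrobp also stood at 0.98, but Tyrobp had no promoter entry to search. A match describes letters only.

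Lgals3, which encodes galectin-3, a sugar-binding protein of damaged lysosomes and phagocytes, showed no call among the myeloid groups. It read 13.98, 14.11 and 13.86 on the Microglia arrays, 13.61, 13.81 and 13.72 in ESdM 20 and 13.86, 13.82 and 13.69 in ESdM 22. It read 13.68, 14.15, 13.22 and 13.54 in MF and 14.29, 14.20 and 14.04 in BM-DC. Ordered by their means, BM-DC, Microglia, ESdM 22, ESdM 20 and MF each overlapped the next, while all Microglia arrays lay above all ESdM 20 arrays. The only Lgals3 probe was among the brightest of an array. It ranked 15th to 29th in Microglia, 13th to 88th in MF and 8th to 18th in BM-DC. Saturation of this probe was not tested, and no dimmer Lgals3 probe was there to compare. ESdM differed from Microglia by -0.23 (95% interval -0.97 to 0.51, adjusted p = 0.866). The width of that interval comes from a spread that the model shares over all 8 groups. The SD of Lgals3 was 1.14 in CD8 Tnaive and 0.386 in MF. It was 0.126 in Microglia, 0.099 in ESdM 20 and 0.087 in ESdM 22. The Astrocyte arrays read 12.10, 12.45 and 12.67, below all myeloid arrays and 2.97-fold below Microglia (adjusted p = 0.00184).

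On the CD8 Tnaive arrays Lgals3 varied more than any other of the 9 genes did within a group, with 8.68, 8.07, 8.97, 7.25 and 6.17 for replicates 1 to 5 (SD 1.14, n = 5). Replicates 1 and 2 shared a chip, 4 and 5 shared another, and 3 was on its own. Markers of other cells varied over the same arrays. H2-Aa, an antigen-presenting molecule, read 9.35, 8.78, 9.77, 7.24 and 6.23. Fcer1g, an adaptor of Fc receptors, read 7.61, 5.99, 7.78, 5.95 and 5.08, and Csf1r, the receptor that keeps macrophages alive, 6.93, 5.28, 7.31, 5.46 and 4.71. Replicates 1 and 3 were the highest for all 4 genes and replicate 5 the lowest, as also for Adgre1 and H2-Ab1. Other markers kept this order in part or not at all. Laptm5 was lowest on replicate 1 (13.55) and highest on replicate 5 (13.86). S100a8, Mertk and Lyz2 were also highest on replicates 1 and 3, and S100a9 was highest on replicates 1 and 2. Mertk and Lyz2 were detected on replicates 1 and 3 alone. S100a8, S100a9, Mertk and Lyz2 were lowest on replicate 4, where of these only S100a8 was detected. Of the 7 macrophage lineage markers 3 were detected on all CD8 Tnaive arrays and 2 on none, and the list summed to 12500 to 15000, most of it Laptm5, which lymphocytes express too. The 8 dendritic cell markers summed to 1010 to 3260 and the 4 granulocyte markers to 95 to 1010. The part of other cells in the Lgals3 level was not tested. CD8 Tnaive lay 71.2-fold below Microglia for Lgals3 (log2 difference -6.15 ± 0.371, n = 5 and 3, adjusted p = 1.02e-13). Without replicates 1, 2 and 3, a setting chosen after seeing the data, the Lgals3 difference was -7.27. Those 3 arrays were the highest of the 5 for Lgals3, so leaving them out could only enlarge the difference.

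**Figure D2:**
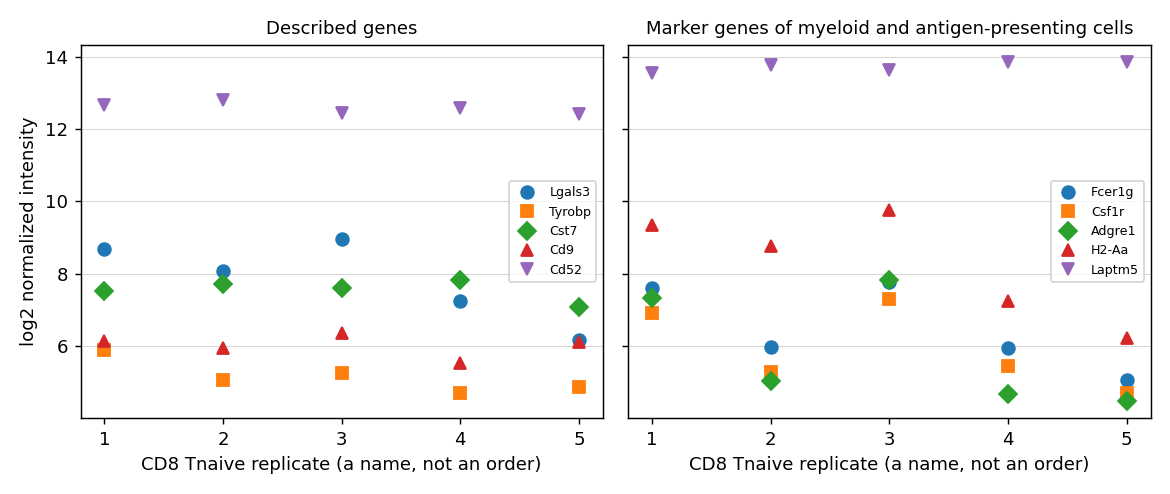
Log2 normalized intensity (vertical axis) on the 5 CD8 Tnaive arrays (horizontal axis, replicate number) for 5 of the described genes on the left and 5 marker genes on the right, 1 point per array. Lgals3, Fcer1g, Csf1r, Adgre1 and H2-Aa are highest on replicates 1 and 3 and lowest on replicate 5. Laptm5 is lowest on replicate 1 and highest on replicate 5, and Cd52 stays between 12.40 and 12.79.

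Cd9 and Cd63 are tetraspanins, membrane proteins of the cell surface and of vesicles and lysosomes. Both were lowest on the Neuron and CD8 Tnaive arrays and highest in BM-DC, with Cd63 read on its brightest probe. Cd9 read 10.73, 10.83 and 10.96 on the Microglia arrays, 11.66, 11.50 and 11.47 in ESdM 20 and 11.05, 11.18 and 11.44 in ESdM 22. It read 11.31, 11.60, 11.47 and 11.51 in MF and 12.40, 12 and 11.93 in BM-DC. All Microglia arrays lay below all of these, and BM-DC lay above all. Microglia were 2.41-fold lower than BM-DC for Cd9 (log2 difference -1.27 ± 0.163, n = 3 and 3, adjusted p = 2.46e-07). ESdM exceeded Microglia by 0.54 (95% interval 0.25 to 0.83, adjusted p = 0.0102), below the minimum for a call. The Astrocyte arrays read 10.61, 10.52 and 10.57, all below the Microglia arrays, with a difference of the means of -0.27 (95% interval -0.61 to 0.06, adjusted p = 0.16).

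Cd63 read 11.94, 11.78 and 11.87 on the Microglia arrays and 11.99, 12.15 and 11.77 on the Astrocyte arrays with its brightest probe, and the groups overlapped. In BM-DC it read 12.74, 12.79 and 12.84, above every other array of the series, and Microglia were 1.90-fold lower (log2 difference -0.92, adjusted p = 3.03e-06) without a call. The middle of the 3 Cd63 probes gave 1.53-fold (log2 difference -0.61, adjusted p = 0.0533), also without a call. The dimmest Cd63 probe gave 10.2-fold (log2 difference -3.35 ± 0.197, adjusted p = 2.21e-13). On that probe BM-DC averaged 11.24 ± 0.090 (SD, n = 3) and MF 8.78 ± 0.218 (SD, n = 4), a call of 5.49-fold between them. On the brightest probe BM-DC and MF differed by 0.35. On the middle probe their arrays overlapped (MF minus BM-DC -0.01, adjusted p = 0.983). The Neuron arrays read 7.96, 8.35 and 8.17, and 1 of 5 CD8 Tnaive arrays detected Cd63.

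Cd52, a small surface glycoprotein anchored in the membrane of lymphocytes and many myeloid cells, separated the groups most among the myeloid cells. It read 9.40, 9.69 and 9.28 on the Microglia arrays with its brighter probe. In ESdM 20 it read 6.18, 6.31 and 6.33 and in ESdM 22 6.14, 6.42 and 6.31. It read 11.19, 11.21, 11.37 and 11.42 in MF, 13.13, 13.25 and 13.10 in BM-DC and 12.65, 12.79, 12.44, 12.57 and 12.40 on the CD8 Tnaive arrays. BM-DC, CD8 Tnaive, MF, Microglia and ESdM followed each other without overlap. ESdM were 9.02-fold lower than Microglia (log2 difference -3.17 ± 0.140, n = 6 and 3, adjusted p = 5.54e-15). Within the 2 shared chips the Cd52 difference was -3.21 and -3.14. ESdM were 32.4-fold lower than MF (adjusted p = 4.34e-21), and Microglia 3.59-fold lower than MF and 13.1-fold lower than BM-DC. The other Cd52 probe was detected on 2 of 3 ESdM 20 arrays and on no ESdM 22 array, and it put ESdM 3.64-fold below Microglia (adjusted p = 3.77e-07). The Astrocyte arrays read 9.92, 8.98 and 9.41 and overlapped the Microglia arrays, and the Neuron arrays did not detect Cd52.

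**Figure D3:**
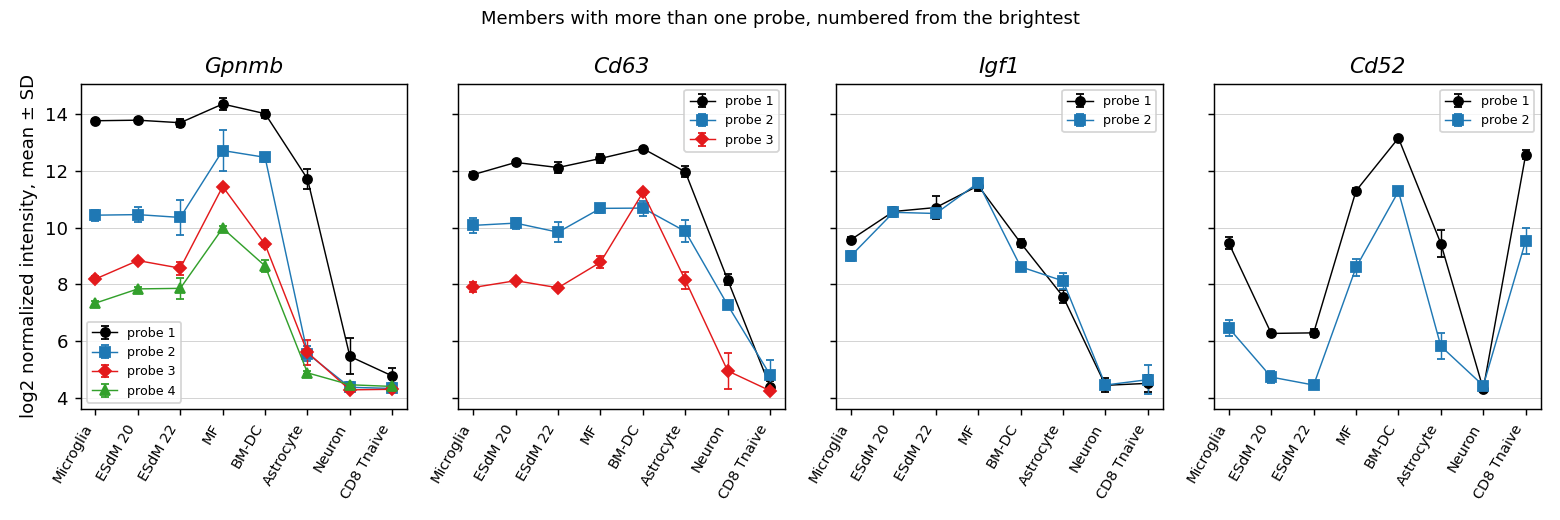
Group mean ± SD of the log2 normalized intensity (vertical axis) by group (horizontal axis, 3 to 5 arrays each) for every probe of Gpnmb, Cd63, Igf1 and Cd52, with lines only to guide the eye. The dimmer Gpnmb probes set MF apart from Microglia and ESdM further than the brightest does, and the dimmest Cd63 probe is highest in BM-DC at 11.24.

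The stem-cell-derived lines were compared with the cells labelled Microglia and with each other. Between ESdM and Microglia, 1 of the 9 genes was called higher (Igf1) and 1 lower (Cd52), where a call needs an adjusted p below 0.05 and a log2 difference of at least 1. Of all 12814 genes, 2.07% were called in this comparison, 0.601% higher and 1.47% lower. The median difference of the 9 genes was -0.02, against 0.014 for all genes, and the median of its size 0.54 against 0.13. Between the lines themselves, ESdM 22 against ESdM 20, limma called none of the 9 genes and 0% of all genes. At an unadjusted p below 0.05 it counted 527 of the 12814 genes, a share below the 0.05 that chance alone gives. None of them was among the 9, whose largest difference was -0.32 for Cd9 (95% interval -0.66 to 0.02).

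Against MF, 5 of the 9 genes were called on the Microglia arrays (22.5% of all genes). Cst7 was higher (11% of all genes), and Trem2, Tyrobp, Igf1 and Cd52 were lower (11.5%). With ESdM in place of Microglia 4 were called (23.6% of all genes): Cst7 higher (11.5%), and Trem2, Tyrobp and Cd52 lower (12.1%). These comparisons share the MF arrays. Igf1 was 0.84 lower in ESdM than in MF (log2 difference -0.84, adjusted p = 2.28e-05), below the minimum for a call, while its other probe was called at -1.06 (adjusted p = 7.87e-06). The median of the 9 genes was -0.63 in Microglia and -0.61 in ESdM, against 0.015 and 0.02 over all genes. Scaling the arrays by their medians moved the median of all genes to -0.121 in Microglia against MF, and 8 of the 9 genes kept their direction there. Lgals3, which was not called, went from 0.33 to -0.12.

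Against BM-DC, 4 of the 9 genes were called on the Microglia arrays (27.3% of all genes): Cst7 higher (14.9%), and Tyrobp, Cd9 and Cd52 lower (12.4%). MF against BM-DC had 3 calls (17.7% of all genes), with Trem2 and Igf1 higher (10.2% of all genes higher) and Cd52 lower by 3.63-fold in MF (7.51% lower). The granulocyte markers that BM-DC carried moved with this comparison, and their part in it was not tested.

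**Figure D4:**
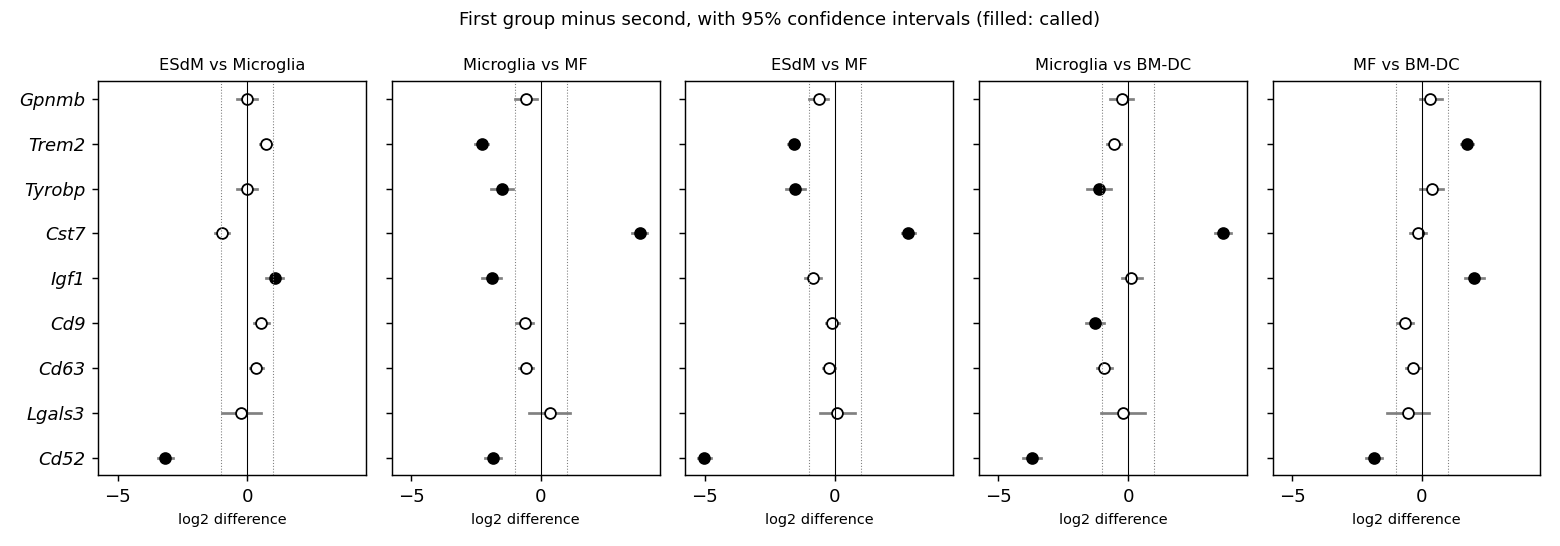
Log2 difference between the groups named above each panel (horizontal axis, first group minus second) for the 9 genes (vertical axis), with 95% confidence intervals, filled points called and dotted lines at the minimum difference of 1 in either direction. Cst7 lies to the right in each comparison of Microglia or ESdM with MF or BM-DC, and Cd52 lies to the left in all 5 panels.

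Astrocyte arrays against Microglia arrays had 6 of the 9 genes lower and none higher (35.4% of all genes called, 16.6% lower). Gpnmb was 4.13-fold lower (adjusted p = 8.18e-09), Trem2 2.96-fold (adjusted p = 2.1e-11), Tyrobp 4.09-fold (adjusted p = 1.25e-08) and Igf1 4.02-fold (adjusted p = 5.56e-10), beside Cst7 and Lgals3 above. The 3 dimmer Gpnmb probes gave 29.4-fold, 6.06-fold and 5.50-fold, and the other Igf1 probe 1.84-fold (log2 difference -0.88, adjusted p = 0.00102), which was not called. Against the Neuron arrays, which lay on the same chip, 8 of 9 were higher on the Astrocyte arrays and none lower (32.4% of all genes called, 17.6% higher). Gpnmb was 76.9-fold higher on its brightest probe. Its 3 dimmer probes, undetected on the Neuron arrays, gave at least 1.96-fold, at least 2.01-fold and at least 1.22-fold, the last not called. Lgals3 was 185-fold higher with 2 of 3 Neuron arrays detected, Tyrobp 14.6-fold with 1 of 3, Trem2 at least 18.7-fold and Cd52 at least 28.8-fold. The Astrocyte arrays held macrophage lineage and microglia markers at the summed levels given above, and the Neuron arrays had 5 of 7 macrophage lineage markers detected on no array. Csf1r read 9.47, 8.38 and 8.74 on the Astrocyte arrays and 8.69, 9.33 and 9.10 on the Microglia arrays. The part of these markers' cells in the result was not tested.

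CD8 Tnaive against Microglia had 8 of the 9 genes lower and 1 higher (32.8% of all genes called, 18% lower and 14.8% higher). Cd52 was 8.66-fold higher (log2 difference 3.12 ± 0.145, n = 5 and 3, adjusted p = 4.61e-16). Trem2 was at least 53.5-fold lower. Gpnmb was 511-fold lower on its brightest probe with 3 of 5 CD8 Tnaive arrays detected, and at least 55.4-fold, 11.7-fold and 6.48-fold lower on the dimmer probes, which no CD8 Tnaive array detected. Cd63 was 178-fold lower on its brightest probe with 1 of 5 detected, 38.5-fold on another with 3 of 5, and at least 9.48-fold on the dimmest with none. The sizes for Gpnmb and Cd63 rest on levels at or near the detection floor in CD8 Tnaive. Cst7 differed least of the 8, by 2.93-fold (adjusted p = 1.34e-10). Without CD8 Tnaive replicates 1, 2 and 3, a setting chosen after seeing the data, all 9 calls were made as well. For Lgals3 that choice could only enlarge the difference.

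Over the 8 group means, 7 of the genes (Gpnmb, Trem2, Tyrobp, Igf1, Cd9, Cd63 and Lgals3) correlated with each other at 0.83 to 0.99 in all 21 pairs. Cst7 and Cd52 correlated with the other genes and with each other at -0.08 to 0.36. These correlations describe 8 points that share arrays and a split between myeloid and other groups, and carry no test. Of the 12814 genes tested, those most alike to Gpnmb by the same measure were Dab2, an endocytic adaptor (r = 0.9958), Rassf4 (0.9933) and the lysosomal glycoprotein precursor Grn (0.9931). For Trem2 they were Igf1 (0.9882), the lysosomal membrane gene Cln3 (0.9881) and Tlr13, an endosomal sensor of bacterial RNA (0.9873). For Tyrobp they were Cstb, another protease inhibitor (0.9989), Slc15a3 (0.9969) and Blvrb (0.9962). For Igf1 they were Tlr13 (0.9964), Kcnk6 (0.992) and Pkib (0.9888). For Lgals3 they were Rit1 (0.9967), the vault protein gene Mvp (0.9898) and Fcer1g (0.9875). For Cd9 they were Grn (0.9839), Myadm (0.9833) and Rnase4 (0.9825), and for Cd63 Adam15 (0.9858), Aldh2 (0.9849) and Dusp3 (0.9814). The likest genes of Cst7 were Mrpl9 (0.9865), Ppargc1b (0.9859) and Prr12 (0.982), and those of Cd52 Sri (0.9704), Sbno2 (0.9603) and Tmem134 (0.9595).

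Other genes of the disease-associated state were read from a list of 30, of which 27 were tested. Between ESdM and Microglia 1 was higher and 3 lower, where 0.601% of all genes were higher and 1.47% lower. Apoe, the lipid carrier of the brain, was 2.31-fold higher in ESdM (adjusted p = 0.0014). The chemokine Ccl4 was 5.46-fold lower (adjusted p = 1.64e-06) and Csf1, the growth factor of macrophages, 3.27-fold lower (adjusted p = 1.19e-07). The median of the 27 was 0 and that of all genes 0.014. On the Microglia arrays 17 of the 27 were lower and 2 higher than in MF (median -1.26), where 11.5% of all genes were lower and 11% higher. The receptor Axl, which recognises dying cells, was at least 25.7-fold lower and detected on no Microglia array (adjusted p = 3.94e-12). Clec7a, the receptor for fungal glucans, was 29.6-fold lower (adjusted p = 1.08e-14), and Csf1 was 4.28-fold higher. ESdM against MF had 16 lower and 1 higher (12.1% and 11.5% of all genes), with Clec7a 54.7-fold lower. Against BM-DC, Microglia had 13 lower and 3 higher (12.4% and 14.9% of all genes), among them Ccl6 at least 159-fold lower and Apoe 32.3-fold higher. MF against BM-DC had 4 higher and 3 lower (10.2% and 7.51% of all genes), with Apoe 66.8-fold higher in MF and 2 of 3 BM-DC arrays detected.

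On the Astrocyte arrays 11 of the 27 were lower and 5 higher than on the Microglia arrays (16.6% and 18.8% of all genes), and 20 were higher and 1 lower than on the Neuron arrays (17.6% and 14.8%). Axl was at least 116-fold higher than on the Microglia arrays, and Lilrb4a, an inhibitory receptor of myeloid cells, 28.3-fold lower. On the CD8 Tnaive arrays 19 were lower and 2 higher than on the Microglia arrays (18% and 14.8% of all genes). These shares over all genes hold for the same comparisons in the lists that follow. Lyz2, the lysozyme of macrophages, was 183-fold lower with 2 of 5 CD8 Tnaive arrays detected.

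**Figure D5:**
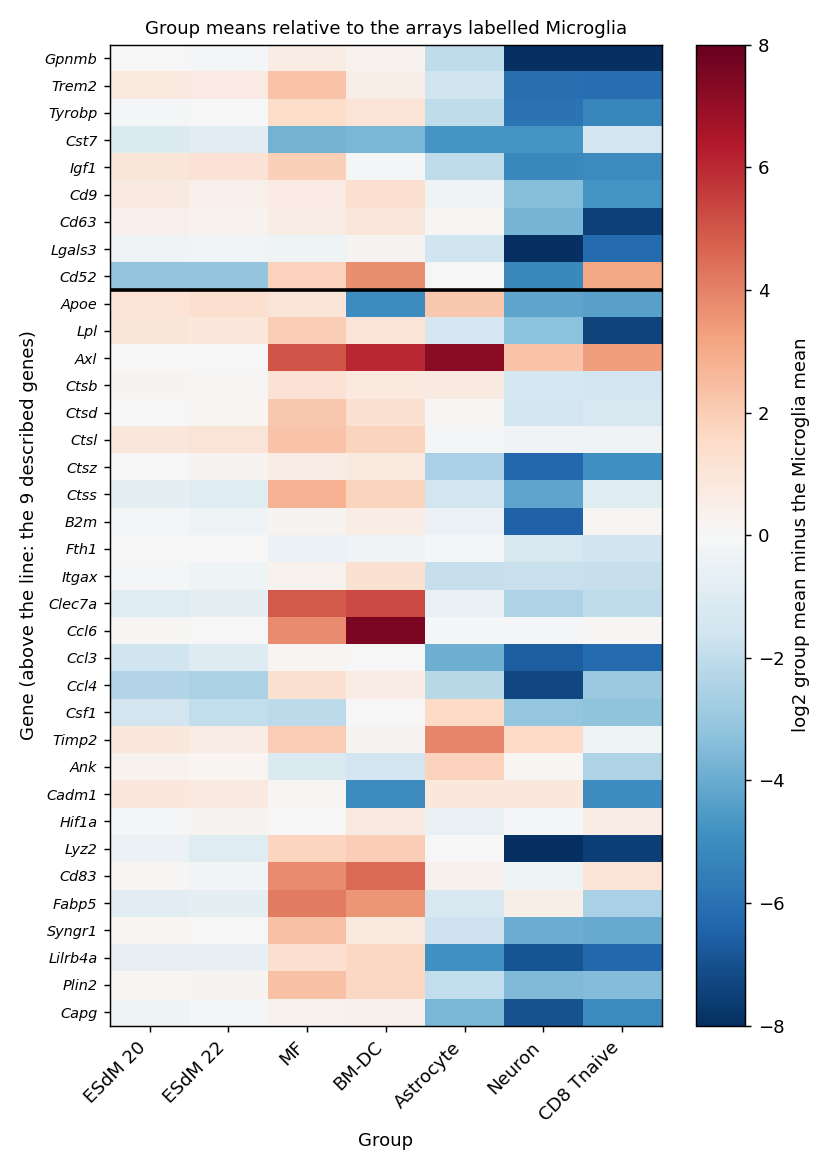
Group mean minus the Microglia mean on the log2 scale (colour, ending at 8 in either direction, so that larger differences show as 8) for the 9 described genes above the line and the 27 tested genes of the wider disease-associated list below it (rows), by group (columns). Axl, Clec7a and Cd83 are higher in MF and BM-DC than in Microglia, and the ESdM columns are pale for most genes apart from Cd52, Ccl4 and Csf1.

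The Trem2 and Tyrobp pathway was read from 23 tested genes of 24 listed, which cover the partner adaptor Hcst, the kinase Syk and other signalling genes. None was called between ESdM and Microglia, where the median was -0.04. Between Microglia and MF 6 were lower and 2 higher, against the 11.5% and 11% of all genes given above. Syk, the kinase that Tyrobp recruits, was 4.99-fold lower with 2 of 3 Microglia arrays detected (adjusted p = 2.22e-13), and Hcst was 4.66-fold lower (adjusted p = 8.36e-13). Cd33, an inhibitory receptor, was 3.47-fold higher (adjusted p = 1.14e-09) and Plcg2, a phospholipase used by Trem2 signalling, 2.07-fold higher (adjusted p = 6.02e-07). ESdM against MF had 6 lower and none higher, led by Syk (5.22-fold) and Hcst (5.11-fold). Against BM-DC Microglia had 9 lower and 1 higher. Trem1, another Tyrobp-coupled receptor, was at least 23.9-fold lower and Sirpb1a 78.9-fold lower with 2 of 3 Microglia arrays detected. MF also lacked Trem1, at least 24.7-fold below BM-DC, in a comparison with 4 higher and 5 lower. The Astrocyte arrays had 10 lower and 1 higher than Microglia, and 8 higher and 2 lower than Neuron. The CD8 Tnaive arrays had 7 lower and 3 higher than Microglia, with Hcst 47.8-fold higher (adjusted p = 5.78e-22) and Btk 34.2-fold lower with 1 of 5 CD8 Tnaive arrays detected.

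The families and partners of single genes were read from further lists. Of 19 other tetraspanins tested, 1 was higher in ESdM than in Microglia (Tspan8, 2.13-fold, adjusted p = 2.1e-07) and none lower. Against MF, Microglia had 3 tetraspanins lower, led by Cd53 (3.21-fold) and Cd37 (3.19-fold), and none higher. Of 7 other galectins and galectin-binding genes tested, none was higher in ESdM than in Microglia and 2 were lower. Lgals3bp, which encodes a secreted partner of galectin-3, was at least 7.97-fold lower and detected on no ESdM array (adjusted p = 4.36e-12), and Lgals9 was 2.98-fold lower with 3 of 6 ESdM arrays detected (adjusted p = 3.58e-05). Lgals3bp was also 13.3-fold lower on the Microglia arrays than in MF (adjusted p = 1.08e-13). Among 13 tested genes of the insulin-like growth factor system, the binding protein Igfbp4 was 2.00-fold higher in ESdM than in Microglia (adjusted p = 3.48e-05) and none was lower. The receptor Igf1r was 3.29-fold higher on the Microglia arrays than in MF (adjusted p = 4.77e-08).

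Of 9 receptors of osteopontin and Gpnmb none was called between ESdM and Microglia, and 3 were lower on the Microglia arrays than in MF. Itgb5, an integrin subunit, was at least 50.5-fold lower and detected on no Microglia array (adjusted p = 9.73e-18). The 2 tested cystatins besides Cst7, Cst3 and Cstb, gave no call in ESdM against Microglia or MF, Microglia against MF or BM-DC, or MF against BM-DC. Of 10 tested regulators, such as the microphthalmia family and nuclear receptors of lipids, none was called between ESdM and Microglia, and 4 were lower on the Microglia arrays than in MF. Pparg, a nuclear receptor of fatty acids, was at least 25.2-fold lower (adjusted p = 2.22e-18) and Nr1h3, a sensor of oxidised cholesterol, 4.23-fold lower (adjusted p = 6.75e-09).

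The remaining comparisons gave these counts for the same families. ESdM against MF had 1 higher and 4 lower tetraspanins, none higher and 4 lower galectins, 1 higher and 4 lower osteopontin and Gpnmb receptors, and none higher and 4 lower regulators, beside Igf1r (3.34-fold higher). Microglia against BM-DC had 5 tetraspanins, 4 galectins, 2 receptors and 4 regulators lower and none of these higher. In the same comparison Igfbp4 was 17.0-fold higher and Irs2, an adaptor of the insulin and Igf1 receptors, 13.5-fold lower. The Astrocyte arrays had 6 growth factor system genes higher and 1 lower than Microglia, with the binding proteins Igfbp5 at least 719-fold and Igfbp2 at least 308-fold higher. They also had 8 tetraspanins higher and 4 lower, 4 receptors higher and 1 lower, 1 galectin higher and 1 lower, 1 regulator higher and 3 lower, and 1 cystatin higher. Against the Neuron arrays they had 10 tetraspanins higher and 1 lower, and 6 receptors, 6 growth factor system genes, 3 galectins, 3 regulators and 2 cystatins higher with none lower. MF against BM-DC had 3 regulators higher and 4 lower, 2 receptors higher, 1 galectin lower, and 1 tetraspanin and 1 growth factor system gene in each direction. On the CD8 Tnaive arrays both cystatins were lower than on the Microglia arrays, Cstb by 7.65-fold and Cst3 by 6.25-fold. There 5 regulators and 3 receptors were lower and none higher, and 5 tetraspanins were higher and 7 lower. Of the galectins 3 were higher and 1 lower, and of the growth factor system 1 was higher. Between ESdM 22 and ESdM 20 limma called no gene of any list.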

How the data were processed

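The deposited scanner table gave the mean bead intensity of 45281 probes on 27 arrays, not normalized between arrays, and a detection p-value per probe, per the file headers. A second deposited table, the series matrix, holds linear intensity with nearly equal medians on all arrays, by a method not given in the sources used here, and served as an alternative. Software, scanner settings and array build are not given in the sources used here. Per the labels' protocols, RNA was taken with Trizol and RNeasy columns and labelled with a TargetAmp kit.

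The function neqc (limma 3.58.1, R 4.3.3) inferred the background from the detection p-values, added an offset of 16 and brought the arrays to common quantiles. Levels are log2 values of the deposited intensity after these steps. A probe entered the tests if 3 or more arrays detected it at p below 0.05 (25001 probes). Of all probes 34885 carried 1 gene symbol, 18 several and 10378 none. The brightest probe per symbol was tested (12814 genes), and other probes were tested as probes. A limma model with 8 group means over 27 arrays (19 residual degrees of freedom) gave 9 comparisons, with Benjamini-Hochberg adjustment over all genes. A call needs an adjusted p below 0.05 and a log2 difference of at least 1. Each gene had a single estimate of the spread, shared by all 8 groups. ESdM is the mean of both line means. Where a group detected a gene on no array, its values were raised to the lowest detected value and the fold is given as "at least". Summed marker levels are sums of linear normalized values. The script was tested on simulated data.

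The 10 genes, the 8 lists with 123 entries (118 with a named probe, 110 tested) and the tests were chosen with earlier results of these data known. From each list up to 2 called genes per direction with the largest difference are named, and 3 genes per described gene by likeness. Titles gave the replicate numbers, since all ESdM descriptions carry replicate 3. Same-numbered arrays did not deviate together (r -0.221 to 0.252 over 33 pairs), so no pairing was used. Cross-hybridisation of near-identical genes was not tested, and the number of arrays limits the precision.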

Additional observations from a re-analysis of the deposited data

Results flagged for a closer look

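Of 22 group values tested for an array that stands far from its group, 1 stood out, where chance gives about 1 in 20. Tyrobp read 11.61 on MF replicate 2 (raw intensity 3001), against 11.93 to 11.94 on the other 3 MF arrays, so that the gap was 0.956 of the group's range.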

How the results depend on the processing

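Of 81 differences between groups (9 genes in 9 comparisons), 72 kept their call under every alternative run and 9 did not, and none of the called ones changed sign. The count of genes called between ESdM and Microglia fell from 2 to 1 with no background correction (Igf1 at 1.00), with the series matrix values (Igf1 at 0.99) and within the first shared chip (Igf1 at 0.82), and Cd52 was called in each. Leaving out 1 array at a time gave 2 to 3 calls for ESdM against Microglia, 3 to 4 for Microglia against BM-DC, and in the other 7 comparisons the count given in the text. Taking the mean of all probes of a gene, Gpnmb was called lower on the Microglia arrays than in MF (-2.19) and BM-DC (-1.21) and in ESdM than in MF (-1.95), and Cd63 lower on the Microglia arrays than in BM-DC (-1.63). Median scaling added Cd9 for Microglia against MF (-1.09), Igf1 for ESdM against MF (-1.29) and Cd63 for Microglia against BM-DC (-1.20). The group with the highest mean of each gene was the same under all normalizations tried. Same-numbered arrays share only a number: with the replicate block the counts were 2, 0, 5, 4, 4, 3, 6, 8 and 9, as without it, in the order ESdM against Microglia, ESdM 22 against ESdM 20, Microglia against MF, ESdM against MF, Microglia against BM-DC, MF against BM-DC, Astrocyte against Microglia, Astrocyte against Neuron and CD8 Tnaive against Microglia. The consensus correlation of arrays on a chip was 0.031. Probes near the detection floor have little range downward, so folds of dim genes are understated.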
